A study of Mus musculus with 13 samples.

Results

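Apof, Apom and Pon1 are the 3 genes of high-density lipoprotein (HDL) in a panel of 100 genes that was measured in sections of regenerating mouse liver. They were chosen by name, as the rows of the count tables and the lines of the transcript lists that carry these symbols, and all 3 had counts in all 13 sections. The livers came from male C57BL/6 mice, given in the labels as 2 months old at every time, in which 2/3 of the liver was removed (partial hepatectomy), so that the rest regrows. Molecular Cartography (Resolve Biosciences) places single transcripts of a chosen panel on a tissue section. There were 2 sections each at 0 h, 24 h, 48 h and 72 h after surgery, 3 sections at 14 d, and 1 each at 3 mo and 6 mo. The same treatment text stands at all times, 0 h included, and no unoperated group was used here. Whether each section is from its own animal is not stated, and the spread behind the p-values could be technical. If that age is the one at surgery, the 2 latest times are also those of the oldest mice, and age cannot be told apart from time there.

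HDL particles carry cholesterol and other lipids in plasma, and hepatocytes make most of their protein components. Apom, apolipoprotein M, binds sphingosine-1-phosphate and holds it on HDL. Pon1, paraoxonase 1, is a lactonase and esterase that rides on HDL and protects lipids from oxidation. Apof, apolipoprotein F, is known in humans as lipid transfer inhibitor protein, which restrains the exchange of cholesteryl esters between lipoproteins, a transfer protein that mice lack. Hepatocytes are arranged in lobules between a portal end, where blood enters, and a central vein, where it leaves, and many liver genes differ along that path. Of a list of 25 HDL and other lipoprotein genes these 3 were the members in the panel, so Apoa1, Lcat, Scarb1 and the others have no value here, and none of 14 listed regulators of the members was in it.

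In the RefSeq annotation of build GRCm38.p6, Apof (gene 103161) lies at chr10:128268699-128271250, Apom (gene 55938) at chr17:35128997-35131801 and Pon1 (gene 18979) at chr6:5168090-5193987. The bases just before the annotated start of Apom and Pon1 are shown because the ratio of Pon1 to Apom changed at 48 h and these genes lay in different parts of the lobule. RefSeq's promoter table matched 2 of the 3 genes, without Apof. Both are on the minus strand and are printed 5′ to 3′ from RefSeq, with matches to 8 searched motifs in capitals.
Apom, chr17:35131802-35132051: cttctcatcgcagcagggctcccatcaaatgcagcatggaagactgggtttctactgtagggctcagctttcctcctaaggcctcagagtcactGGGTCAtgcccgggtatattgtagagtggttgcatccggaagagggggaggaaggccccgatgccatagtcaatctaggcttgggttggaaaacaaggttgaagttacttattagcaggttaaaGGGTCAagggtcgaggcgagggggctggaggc
Pon1, chr6:5193988-5194196: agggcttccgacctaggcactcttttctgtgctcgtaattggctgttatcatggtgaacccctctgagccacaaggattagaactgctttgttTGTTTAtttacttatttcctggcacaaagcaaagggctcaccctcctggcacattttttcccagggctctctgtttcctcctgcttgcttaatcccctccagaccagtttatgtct
The motifs were searched on both strands. They were GGGTCA as a nuclear receptor half-site with its other form AGGTCA, the hepatocyte nuclear factor 1 half-site GTTAAT, the hepatocyte nuclear factor 4 core CAAAGT, the AP-1 site TGACTCA, the forkhead core TGTTTA, the Sp1 box GGGCGG and the TATA box TATAAA. No motif matched at overlapping bases. The window of Apom held GGGTCA at bases 95 to 100 and 219 to 224, and 11.65% of 32851 promoters held it in a window of 250 bases. The window of Pon1 held TGTTTA at bases 94 to 99, and 10.6% of promoters held it in a window of 209 bases. A match describes these letters and is not a site at which a factor was measured.

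The sections held 131221 cells and 55744933 counts in cells, with 1678015 to 9619206 counts per section. Counts per cell ran from 269.75 at 6 mo to 618.91 in section 1 at 14 d, with 341.51 and 338.68 at 0 h. Slide 1 held 0 h section 1, all sections of 24 h and 48 h, 72 h section 1 and 3 mo. Slide 2 held 0 h section 2, 72 h section 2 and 6 mo, and slide 3 held all 14 d sections, so that slide cannot be told apart from time for 14 d. The hepatocyte gene Cyp2e1, a cytochrome P450 of the central lobule, took 34.26% and 26.67% of counts at 0 h and as little as 7.96% at 48 h, which moves the share of every other gene. The hepatocyte enzymes Cyp2e1, Cps1, Ass1, Arg1 and Glul had counts in all 13 sections, and Alb was not in the panel.

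Apof was the most abundant of the 3 by counts, with 1855138 in all cells, followed by Pon1 with 916990 and Apom with 393854. They ranked 8, 9 and 26 of 100 genes by counts, although counts of different genes also depend on their probes. Apof made up 1.76% and 2.33% of the counts in cells at 0 h, 2.14% and 2.15% at 24 h, 2.73% and 3.16% at 48 h, 3.45% and 3.01% at 72 h, 4.43%, 4.65% and 4.35% at 14 d, 1.59% at 3 mo and 1.70% at 6 mo. From 48 h to 14 d every section lay above both 0 h sections, and the sections at 3 mo and 6 mo lay below both. The number of other genes that lay so was not counted. By total counts, the share of the median gene of the panel was also higher than at 0 h. On the log2 scale it was higher by 0.32 (24 h), 0.92 (48 h), 0.54 (72 h), 0.83 (14 d), 0.61 (3 mo) and 0.11 (6 mo). In counts per cell, Apof stood at 6.00 and 7.90 at 0 h, 7.54 and 7.86 at 24 h, 9.10 and 11.5 at 48 h, 17.7 and 13.4 at 72 h, 27.4, 28.6 and 20.2 at 14 d, 5.43 at 3 mo and 4.58 at 6 mo. It was found in 82.33% of the cells at 6 mo and in 90.85% to 97.34% of the cells of every other section.

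Apom, the scarcest of the 3, made up 0.450% and 0.706% of counts at 0 h, 0.573% and 0.450% at 24 h, 1.03% and 1.21% at 48 h, 0.752% and 0.894% at 72 h, 0.786%, 0.661% and 0.607% at 14 d, 0.433% at 3 mo and 0.427% at 6 mo. Its share was highest at 48 h, where both sections lay above all other sections. How many other genes had such an order was not counted. The share of the median gene was also higher at 48 h than at 0 h, by 0.92 on the log2 scale. Relative to their mean, the 2 sections at 0 h differed more for Apom than for Apof or Pon1. In counts per cell Apom stood at 1.54 and 2.39 at 0 h, 2.01 and 1.65 at 24 h, 3.45 and 4.43 at 48 h, 3.86 and 3.98 at 72 h, 4.86, 4.07 and 2.82 at 14 d, 1.48 at 3 mo and 1.15 at 6 mo.

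Pon1 made up 1.49% and 1.46% of counts at 0 h, 0.934% and 0.868% at 24 h, 1.16% and 1.42% at 48 h, 1.63% and 1.35% at 72 h, 2.06%, 2.10% and 2.06% at 14 d, 1.81% at 3 mo and 0.716% at 6 mo. All sections of 24 h, 48 h and 6 mo lay below both 0 h sections, the 14 d and 3 mo sections lay above them, and those of 72 h lay on either side. How many other genes of the panel lay so was not counted. The share of the median gene was higher than at 0 h at all of these times, by the values given for Apof. In counts per cell Pon1 stood at 5.10 and 4.95 at 0 h, 3.29 and 3.18 at 24 h, 3.86 and 5.18 at 48 h, 8.37 and 6.04 at 72 h, 12.7, 12.9 and 9.55 at 14 d, 6.20 at 3 mo and 1.93 at 6 mo. Of the cells at 6 mo, 62.03% had a Pon1 count, against 88.17% and 85.43% at 0 h. Counts per cell summed over all genes were also higher at 14 d and lower at 6 mo than at 0 h.

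**Figure D1:**
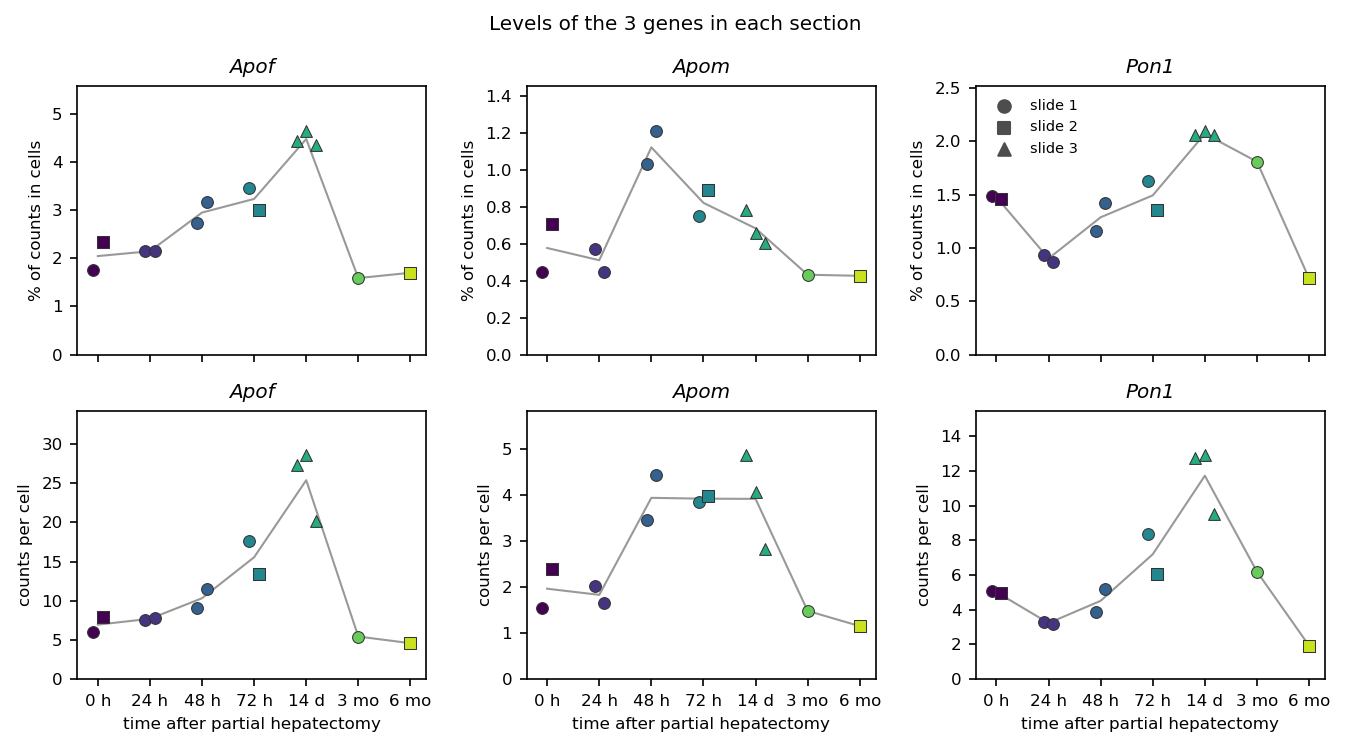
Share of counts in cells (top, %) and counts per cell (bottom) of each gene over time after partial hepatectomy. Each point is 1 section, its shape the slide and its colour the time, and the grey line joins the means. Apof climbs to 14 d, Apom has its highest share at 48 h, and Pon1 has its low points at 24 h and 6 mo.

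Levels were compared with 0 h over sections in edgeR, with the 24 h sections summed to 1 library and TMM scaling, which sets the typical gene of the panel to no change. On that scale Pon1 was lower at 24 h, with a log2 fold change of -1.16 ± 0.32 (SE, adjusted p = 0.0161), at 48 h (-0.91 ± 0.25, adjusted p = 0.0140) and at 6 mo (-1.36 ± 0.32, adjusted p = 0.00465). Of the 99 genes tested, 7.07% were lower at 24 h, 12.1% at 48 h and 12.1% at 6 mo, and those that passed in either direction were 22.2% (24 h), 23.2% (48 h), 15.2% (72 h), 28.3% (14 d), 0% (3 mo) and 23.2% (6 mo). Apof and Apom passed at no single time. Apof stood at 0.33 ± 0.24 at 14 d (adjusted p = 0.331) and at -1.05 ± 0.34 at 3 mo (adjusted p = 0.144). Apom stood at 0.21 ± 0.29 at 48 h (adjusted p = 0.619), -0.59 ± 0.26 at 14 d (adjusted p = 0.1002) and -1.12 ± 0.38 at 3 mo (adjusted p = 0.152). The 0 h sections spread widely on this scale, with an Apof mean of 29684 ± 11054 CPM (counts per 1e6 scaled counts, SD, n = 2) and an Apom mean of 8475 ± 4070 CPM (SD, n = 2). At 3 mo edgeR called 0 genes of the panel, with 12 of them, Apof and Apom included, at an unadjusted p under 0.05, and DESeq2 called 2.

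The calls depended on the scaling at 48 h, 72 h and 14 d for Apof and Apom and at 24 h, 48 h and 14 d for Pon1. Total-count scaling, which compares shares of counts, moved the median gene up against TMM by 0.42 (24 h), 0.67 (48 h), 0.42 (72 h), 0.74 (14 d), 0.62 (3 mo) and 0.28 (6 mo) on the log2 scale. Scaling by the number of cells moved it by 0.49 (24 h), 0.72 (48 h), 0.91 (72 h), 1.47 (14 d), 0.63 (3 mo) and -0.059 (6 mo). With total counts Apof was higher at 48 h (0.53 ± 0.19, adjusted p = 0.0459), at 72 h (0.66 ± 0.19, adjusted p = 0.0349) and at 14 d (1.13 ± 0.18, adjusted p = 9.91e-04), and the background of higher genes was 40.4% at 48 h, 26.3% at 72 h and 37.4% at 14 d. Per cell Apof was higher at 72 h (1.16 ± 0.29, adjusted p = 0.00714) and at 14 d (1.87 ± 0.28, adjusted p = 1.10e-04), where 38.4% and 75.8% of genes were higher.

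Apom was higher at 48 h by total counts (0.96 ± 0.27, adjusted p = 0.0199) and per cell (1.00 ± 0.36, adjusted p = 0.0456), and 32.3% of genes were higher per cell. The median gene of the panel changed by 0.92 and 0.97 from 0 h at 48 h under these scalings, so the Apom values lay close to it. Per cell Apom was also higher at 72 h (1.00 ± 0.36, adjusted p = 0.0434) and at 14 d (1.00 ± 0.34, adjusted p = 0.0169), while TMM gave a value below 0 at 14 d. The median gene per cell changed by 1.05 at 72 h and 1.57 at 14 d, and by total counts by 0.54 and 0.83, so that Apof lay above it and Apom per cell below it at both times. At 48 h Apof by total counts lay below the median gene. Pon1 was higher at 14 d by total counts (0.49 ± 0.17, adjusted p = 0.0400) and per cell (1.22 ± 0.28, adjusted p = 0.00206), both below the median gene, and stood at -0.29 ± 0.22 with TMM (adjusted p = 0.356).

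The falls of Pon1 at 24 h and 48 h passed with TMM and with neither of the other scalings, and with TMM they no longer passed on slide 1 alone (-0.99 and -0.69). At 24 h the value was -0.70 ± 0.23 by total counts (adjusted p = 0.0503) and -0.63 ± 0.37 per cell (adjusted p = 0.308). At 48 h it was -0.20 ± 0.18 by total counts (adjusted p = 0.399) and -0.15 ± 0.30 per cell (adjusted p = 0.683). The fall of Pon1 at 6 mo passed under all 3 scalings, with -1.04 ± 0.23 by total counts (adjusted p = 0.0119) and -1.38 ± 0.39 per cell (adjusted p = 0.0456), where 7.07% and 3.03% of genes were lower. It rests on 1 section, whose spread is taken from the other times, and it no longer passed with the 14 d sections as 1 library (-1.22, adjusted p = 0.0770) or with 0 h and 6 mo alone in the fit (-1.38, adjusted p = 0.385). Markers of other cell types are given as counts per 1e6 counts in cells with no scaling, so the Cyp2e1 share moves them too. Some of them differed from 0 h at the times of these falls and others did not. At 6 mo the macrophage genes Adgre1 and Lyz2 summed to 10547, against 5045 and 4027 at 0 h. Only Lyz2 was higher, with 11211 CPM by TMM at 6 mo, against 5203 and 5583 at 0 h. Adgre1 stood at 888 CPM at 6 mo, against 1076 and 895 at 0 h. Sox9 of bile duct cells stood at 793 at 6 mo, against 276 and 223 at 0 h, and Lrat of stellate cells at 2985, against 1750 and 1258. Endothelial markers (Pecam1, Wnt2, Wnt9b and Rspo3) at 2695 and the leukocyte gene Ptprc at 590.1 lay within the 0 h values of 2909 and 2029 and of 581.5 and 664.9. At 24 h and 48 h the endothelial sum was 4266 and 4527 (24 h) and 3964 and 5146 (48 h), and Sox9 was 506.7 and 554.8 (24 h) and 566.9 and 396.2 (48 h), above both 0 h sections. With TMM, Sox9 in section 2 of 48 h was 322.1 CPM, below both 0 h sections (343.2 and 358.6). The 24 h library (546.8) and section 1 of 48 h (533.6) stayed above them. The macrophage sum was 4175 and 4363 (24 h) and 4634 and 3823 (48 h). Lrat was 1419 and 1465 (24 h) and 2331 and 3359 (48 h). Ptprc was 410.9 and 430.9 (24 h) and 531.8 and 482.2 (48 h). With TMM, Lyz2 stood at 3889 CPM (24 h) and 3503 and 2616 (48 h), and Adgre1 at 525.0, 858.8 and 492.5. Ptprc stood at 435.0, 500.6 and 392.1 CPM, against 723.7 and 1069 at 0 h. These genes lay below both 0 h sections. Lrat did so at 24 h only (1492, against 2178 and 2024 at 0 h). Pecam1 lay above both at 24 h (3324) and 48 h (3005 and 3020), against 2880 and 2606 at 0 h. No marker of these lists was at 0 in any section, and their part in the falls of Pon1 was not tested.

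**Figure D2:**
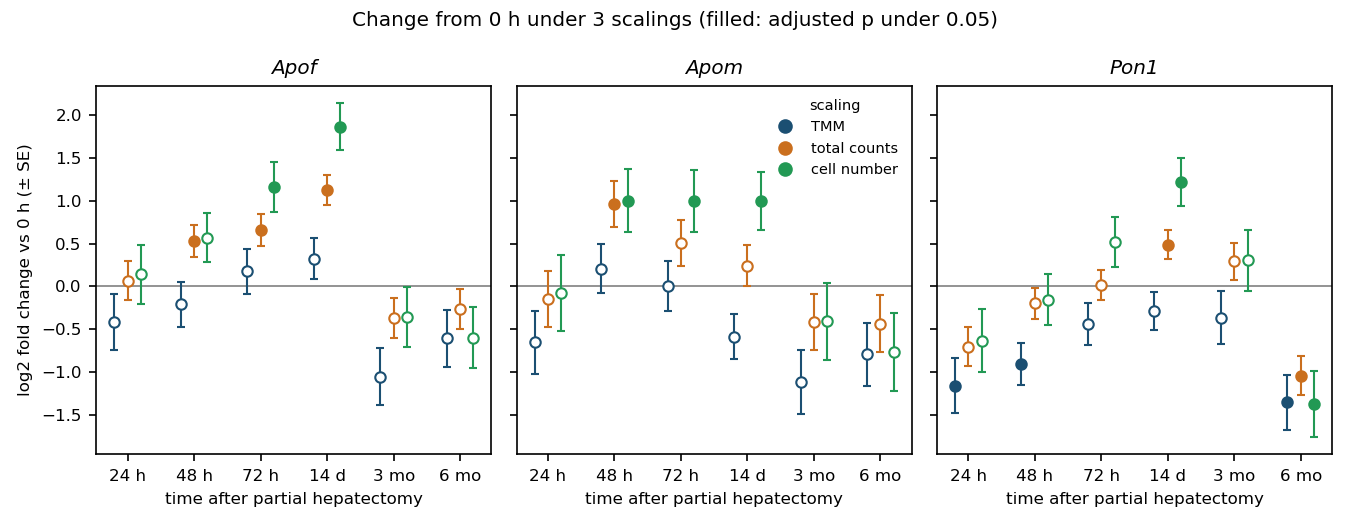
Log2 fold change of each gene from 0 h (± SE) at each later time in edgeR, with TMM, total-count or cell-number scaling. Filled points have an adjusted p under 0.05, and Pon1 at 6 mo is filled under all 3 scalings while Apof at 14 d is filled under total counts and cell number.

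No member passed between neighbouring times, where 5.05% of genes passed for 48 h against 24 h, 9.09% for 72 h against 48 h and 27.3% for 14 d against 72 h. Over all times together, TMM gave an adjusted p of 0.0112 for Apof, 0.0147 for Apom and 0.00534 for Pon1, and 65.7% of genes passed that test. Of 13 settings, the one given here included, that call held in 7 for Apof, 5 for Apom and 11 for Pon1, with adjusted p of up to 0.445, 0.445 and 0.0958. It was lost in 6 (Apof), 5 (Apom) and 0 (Pon1) of 13 fits without 1 section. As a sum over a section, a lower level cannot tell fewer cells that express a gene from less RNA per cell.

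The ratio of 2 members within a section needs no scaling. Pon1 over Apom was 1.12 and 1.17 at 48 h, against 3.32 and 2.07 at 0 h. In edgeR with the Apom count as library size this was a change of -1.24 ± 0.37 (adjusted p = 0.0244), with 10.2% of genes lower relative to Apom. Over all times the ratio was 3.32 and 2.07 at 0 h, 1.63 and 1.93 at 24 h, 1.12 and 1.17 at 48 h, 2.17 and 1.52 at 72 h, 2.62, 3.17 and 3.39 at 14 d, 4.18 at 3 mo and 1.68 at 6 mo. Its lowest values were those of 48 h and its highest that of 3 mo. The call at 48 h was lost without section 1 of 48 h (-1.20) or without section 2 (-1.27). In these fits 1 section was left at 48 h, and the part of this in the loss was not tested. Of 9 other settings, the one given here included, the call held in 5.

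Pon1 over Apof was 0.849 and 0.626 at 0 h and 0.404 to 0.473 in all 9 sections from 24 h to 14 d. It stood at 1.14 at 3 mo and at 0.422 at 6 mo. At 14 d the change was -0.67 ± 0.22 (adjusted p = 0.0413), with 25.5% of genes lower relative to Apof, and no other time passed. Apof over Apom was 5.63, 7.02 and 7.17 at 14 d, against 3.91 and 3.30 at 0 h, a change of 0.87 ± 0.30 (adjusted p = 0.0432) with 16.3% of genes higher relative to Apom. At 48 h it was 2.64 and 2.61, the lowest of the series, and the change of -0.46 ± 0.33 did not pass (adjusted p = 0.444). Both 14 d calls were lost without any one of the 14 d sections, at adjusted p of 0.104, 0.146 and 0.102 for Pon1 over Apof and 0.0522, 0.195 and 0.162 for Apof over Apom. Over all 13 fits without 1 section, the call was lost in 8 for Pon1 over Apof and in 7 for Apof over Apom. Leaving out some sections of other times thus removed these calls too.

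**Figure D3:**
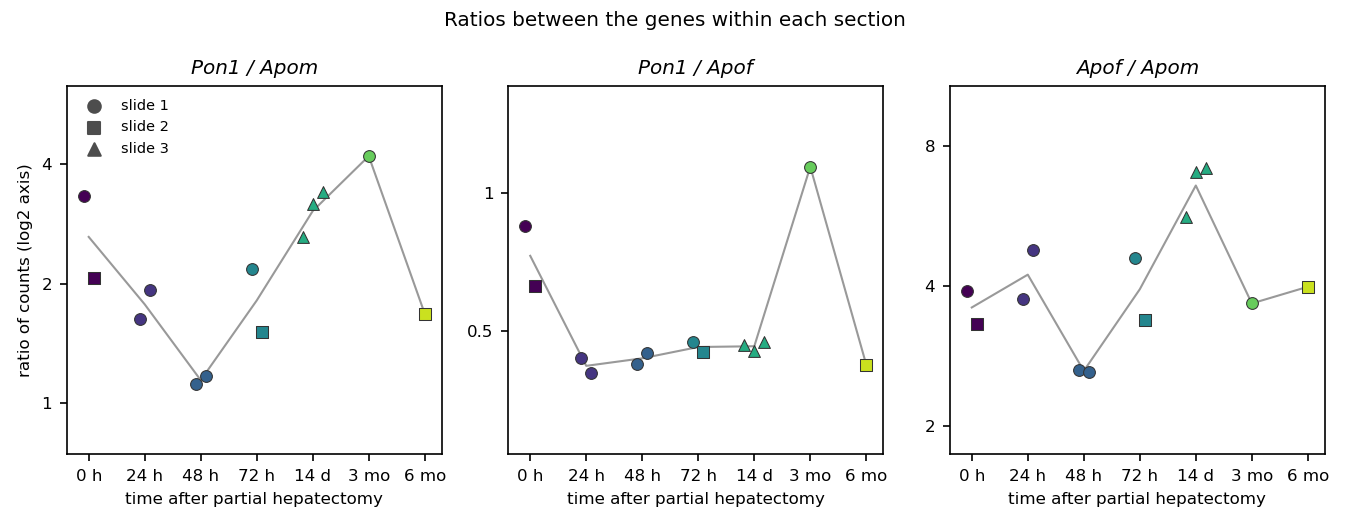
Ratio of counts of 2 genes within each section on a log2 axis over time, each point 1 section with its slide as the shape, and the grey line the geometric mean. Pon1 over Apom is lowest at 48 h, Pon1 over Apof lies between 0.404 and 0.473 from 24 h to 14 d, and Apof over Apom is highest at 14 d.

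Apof and Apom were on the portal side of the lobule in every section, and Pon1 was in the middle to central part. Position was read by dividing each section into squares with a side of 400 coordinate units, keeping those that held 50 transcripts or more (tiles), by the Spearman correlation of a gene's share of transcripts with a score of 9 central genes minus 6 portal genes, so that a value below 0 is portal. The score leaves out the gene tested. Over the 12 sections with transcript lists (486 to 1631 tiles each) Apof lay between -0.892 and -0.541, with a median of -0.788. Apom lay between -0.877 and -0.582, with a median of -0.772. Pon1 lay between 0.208 and 0.728, with a median of 0.463. At 0 h, Apof (mean of -0.86) and Apom (-0.86) ranked 10 and 11 of 62 genes from the portal end, and Pon1 (0.34) ranked 47. The portal end of that order was the gluconeogenic gene Fbp1 (-0.95), and the central end was Cyp2e1 (0.95).

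Tiles ordered by the score and cut into 5 equal groups show the profile. Per 1000 transcripts of a tile group, Apom had 8.81, 8.73, 4.74, 1.94 and 1.02 from the portal to the central end in section 1 at 0 h, and 11.96, 11.7, 8.96, 5.20 and 2.37 in section 2. Apof had 31.1, 30.3, 18.6, 8.47 and 5.94 in section 1 and 35.8, 36.6, 29.99, 16.5 and 7.60 in section 2. Both fall towards the central vein. Pon1 had 8.54, 18.0, 20.04, 15.8 and 14.9 in section 1 and 7.37, 13.7, 22.6, 20.6 and 14.8 in section 2, lowest at the portal end and highest in the middle group. By these shares, the highest group was 1 or 2 in 10 of 12 sections for Apof and in 11 of 12 for Apom. It was 3 or 4 in all 12 for Pon1. Cyp2e1 is part of the totals behind these shares. With Cyp2e1 left out of them, the log2 ratio of Pon1 in group 5 over group 1 at 0 h was 2.20 and 2.30. With it the ratio was 0.80 and 1.01. Per tile, Pon1 at 0 h was highest in group 5 in section 1 (93.9) and in group 4 in section 2 (108.1).

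In transcripts per tile, Apof in the most portal group was 532.7 and 511.7 at 14 d, against 134.6 and 163.9 at 0 h. In the most central group it was 129.3 and 144.7 at 14 d, against 37.5 and 47.2 at 0 h. All transcripts per tile were also higher, with 9629 and 9010 portal and 8088 and 7893 central at 14 d, against 4327 and 4585 portal and 6318 and 6214 central at 0 h. Per 1000 transcripts Apof in the most portal group was 55.3 and 56.8 at 14 d, against 31.1 and 35.8 at 0 h, and in the most central group 15.98 and 18.3 at 14 d, against 5.94 and 7.60 at 0 h. Counts and shares of Apof were thus higher at both ends at 14 d. Pon1 per tile at 6 mo was 10.2 in the most portal and 44.1 in the most central group, against 36.97 and 33.8 portal and 93.9 and 91.96 central at 0 h, lower at both ends. The total per tile was 3407 portal and 4653 central at 6 mo, and Pon1 per 1000 transcripts was 3.00 portal and 9.48 central at 6 mo, against 8.54 and 7.37 portal and 14.9 and 14.8 central at 0 h.

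**Figure D4:**
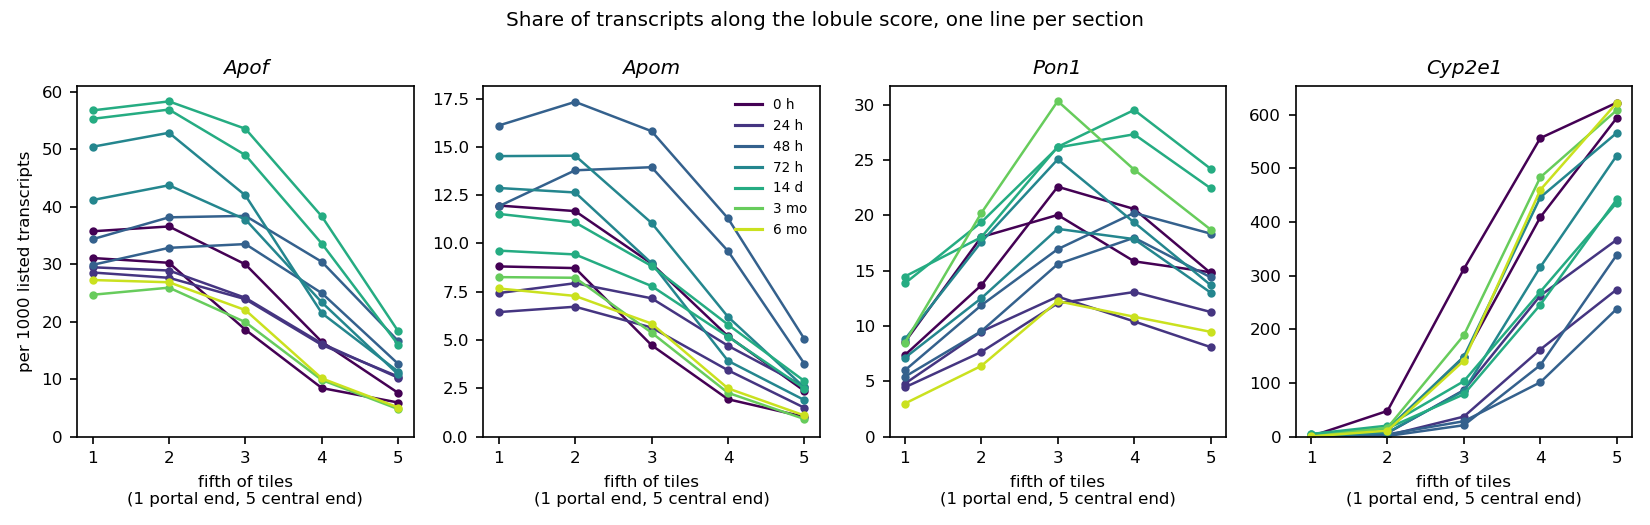
Transcripts per 1000 listed transcripts of Apof, Apom, Pon1 and Cyp2e1 in 5 equal groups of tiles ordered from the portal (1) to the central end (5), 1 line per section and coloured by time. By these shares Apof and Apom fall towards the central end and Pon1 is highest in group 3 or 4. Cyp2e1 is part of the totals, and its share in group 5 is lower at 24 h and 48 h than at 0 h.

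By shares of totals that include Cyp2e1, the 3 genes lay further towards the central end at 48 h than at 0 h. This was on the Fisher-transformed scale in limma. Apof was higher by 0.66 ± 0.13 (adjusted p = 8.61e-04), Apom by 0.54 ± 0.13 (adjusted p = 0.00468) and Pon1 by 0.50 ± 0.13 (adjusted p = 0.00567). Of the 62 genes tested 38.7% moved that way and none the other way. The correlations of Apof were -0.594 and -0.541 at 48 h, against -0.892 and -0.829 at 0 h. Those of Apom were -0.582 and -0.682 at 48 h, against -0.877 and -0.836 at 0 h. Those of Pon1 were 0.658 and 0.728 at 48 h, against 0.254 and 0.427 at 0 h. In each of the 3 genes the sections of the 2 times do not overlap. The share of the 62 genes for which this holds was not counted.

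Cyp2e1 moved with this result. In the most central group of tiles its share was 338.6 and 238.1 per 1000 transcripts at 48 h, against 622.4 and 593.9 at 0 h. With Cyp2e1 left out of both totals and score, the difference was 0.47 for Apof (adjusted p = 0.0645), 0.30 for Apom (adjusted p = 0.275) and -0.066 for Pon1 (adjusted p = 0.810), so that no gene passed and Pon1 turned direction. Without Cyp2e1 the correlations of Pon1 lay between 0.463 and 0.882 in all 12 sections. Their median was 0.825, further towards the central end than the median of 0.463 with Cyp2e1. Those of Apof lay between -0.794 and -0.416 and those of Apom between -0.794 and -0.481, so that each gene kept its side of the lobule. The Apom shift at 48 h also missed the threshold without section 1 of 48 h (0.45, adjusted p = 0.0522) and that of Pon1 without section 2 of 48 h (0.43, adjusted p = 0.0653). No shift passed at any other time.

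**Figure D5:**
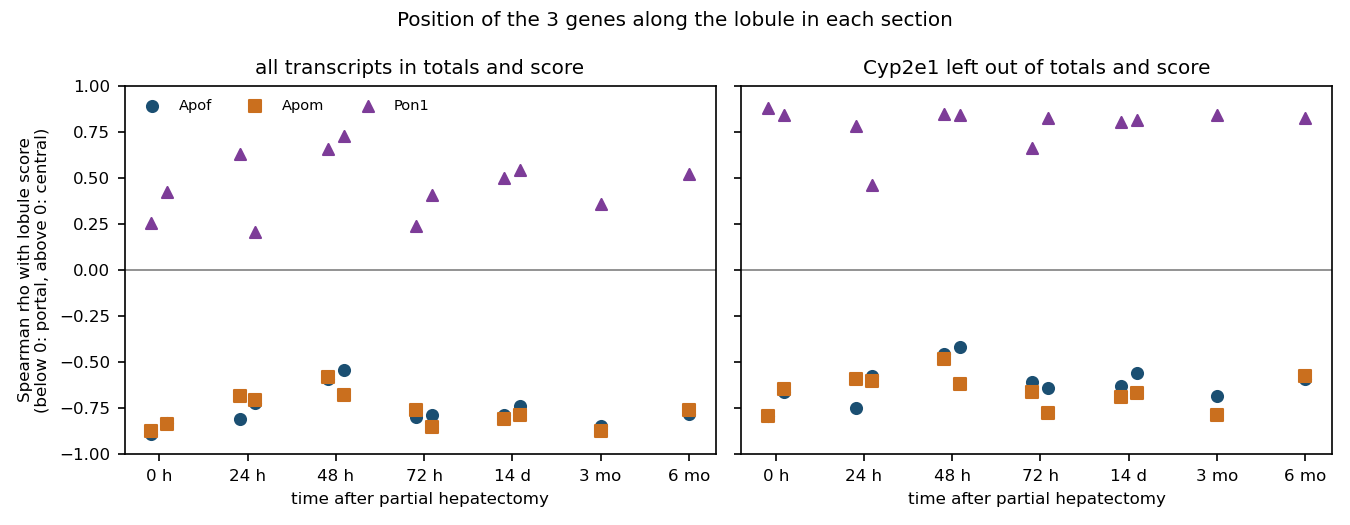
Spearman correlation of each gene's share with the lobule score over tiles, 1 point per section and gene, with all transcripts (left) and with Cyp2e1 left out of totals and score (right). Apof and Apom lie below 0 and Pon1 above 0 in all 12 sections on both sides, and the approach of the 48 h points to the central end is smaller or absent on the right.

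Apof and Apom shared their tiles. Over tiles their shares had a Spearman correlation of 0.592 to 0.930 (median of 0.862, 12 sections, shares of the same tile totals). Pon1 with Apof had -0.367 to 0.252 (median of -0.101) and Pon1 with Apom -0.306 to 0.264 (median of -0.154). In single cells with at least 50 counts, Apof and Apom had 0.335 to 0.717 (median of 0.471, 13 sections), Pon1 with Apof -0.112 to 0.165 and Pon1 with Apom -0.096 to 0.163. All 3 genes were counted in the same cell in 84.36% of cells in section 1 at 14 d and in 33.22% at 6 mo, where counts per cell were lowest.

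Cells that held at least 3 counts of another type's markers were set against cells without such markers in the same section. Their Apom share was higher in 12 of 13 sections for endothelial markers (median ratio of 1.22, range of 0.997 to 1.85), in 13 of 13 for macrophage markers (1.29, 1.14 to 2.12), in 13 of 13 for Ptprc (1.31, 1.09 to 2.34) and in 12 of 13 for Lrat (1.26, 0.978 to 2.06). Apof had medians of 0.904 (0.812 to 1.32), 1.05 (0.905 to 1.59), 0.982 (0.879 to 1.65) and 0.931 (0.859 to 1.52) in these classes. Pon1 had medians of 0.960 (0.770 to 1.39), 1.01 (0.853 to 1.32), 0.957 (0.723 to 1.27) and 1.02 (0.842 to 1.45). The highest Apof and Apom ratios of these classes were those of 6 mo. The hepatocyte genes Cps1 and Hpd had medians of 0.859 and 1.09 for endothelial and 0.954 and 1.04 for macrophage markers. Vtn and C8b, also of hepatocytes, had 1.12 and 1.04 for endothelial and 1.23 and 1.08 for macrophage markers. For Ptprc and Lrat, Cps1 had 0.960 and 0.851, Hpd 1.01 and 1.08, Vtn 1.19 and 1.11, and C8b 1.06 and 1.07. A higher share in such cells was thus not particular to Apom, and no cell type was assigned to an outline. Cells with at least 3 counts of Sox9, a gene of bile duct and some portal cells, were 54 to 493 per section. They held 0.38 (range of 0.13 to 0.66 over 13 sections) of the Pon1 share of the marker-free cells, with 1.09 (0.76 to 1.35) for Apof and 1.44 (0.95 to 1.87) for Apom. The Pon1 share was lower in them in every section, and so was that of Cps1, with a median of 0.79 (0.69 to 0.97). Hpd had a median of 0.81 (0.64 to 1.02), Vtn of 1.36 (0.77 to 2.15) and C8b of 1.04 (0.69 to 1.38). The Pon1 share was also lowest at the portal end of the lobule in all 12 sections with lists. The part of position in these ratios was not tested.

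Of the other genes, Pon1 had the time course most like that of Cyp27a1, a bile acid and oxysterol enzyme (Pearson r = 0.84 over 12 libraries of log2(CPM + 1)), Ptprc (0.72) and Rgn (0.60). Apof was most like Pecam1 (0.69), Epas1 (0.68) and Rspo1 (0.65), and Apom most like Yap1 (0.72), the plasma protein Vtn (0.71) and Wnt5b (0.65). The values describe libraries that share scaling and batches and say nothing on shared control. Apof and Apom had 0.49 with each other, Apof and Pon1 0.50, and Apom and Pon1 0.13.

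Other plasma proteins that hepatocytes secrete (7 of 22 in the panel) gave, with TMM, 1 gene higher and 1 lower at 24 h, 1 and 2 at 48 h, 0 and 2 at 72 h, 0 and 3 at 14 d, and 1 and 3 at 6 mo. Over all genes the share higher was 15.2% (24 h), 11.1% (48 h) and 11.1% (6 mo), and the share lower 7.07% (24 h), 12.1% (48 h), 6.06% (72 h), 13.1% (14 d) and 12.1% (6 mo). The median of the list was -0.40, 0.35, -0.39, -0.88 and -1.13 at these times, beside -0.09, 0.21, 0.12, 0.07 and -0.15 for all genes. Lect2, a secreted chemotactic factor, was higher at 24 h (1.78 ± 0.52, adjusted p = 0.0244) and 48 h (1.36 ± 0.45, adjusted p = 0.0478), also by total counts and per cell. At 14 d the complement gene C6 was lower (-2.80 ± 0.27, adjusted p = 1.86e-07), also by total counts (-2.09) and per cell (-1.36). The other calls of the list depended on the scaling. C8b, a complement gene, was lower at 24 h with TMM (-1.20 ± 0.34) but not by total counts (-0.73, adjusted p = 0.137) or per cell (-0.66, adjusted p = 0.377). At 48 h C8b and C6 were lower with TMM (-0.97 ± 0.27 and -0.93 ± 0.29) and stood at -0.24 and -0.27 by total counts and -0.18 and -0.21 per cell, with no call. At 72 h they were lower with TMM (-1.31 ± 0.27 and -0.99 ± 0.29), C8b also by total counts (-0.84, adjusted p = 0.0349), and neither per cell (-0.35 and -0.091). At 14 d C8b was lower with TMM (-1.21 ± 0.24) and stood at -0.42 by total counts (adjusted p = 0.140) and 0.33 per cell (adjusted p = 0.345). The adhesion protein Vtn turned direction at 14 d, lower with TMM (-0.89 ± 0.25, adjusted p = 0.00965), at -0.079 by total counts (adjusted p = 0.729) and higher per cell (0.65, adjusted p = 0.0244). At 6 mo C6 (-1.23 ± 0.38), C8b (-1.13 ± 0.34) and the growth factor Igf1 (-1.34 ± 0.35) were lower with TMM alone, with adjusted p of 0.161, 0.0938 and 0.0653 by total counts and 0.131, 0.123 and 0.0607 per cell. Igfbp2, an insulin-like growth factor binding protein, was higher at 6 mo with TMM (1.11 ± 0.31) and by total counts (1.44, adjusted p = 0.0100) but not per cell (1.11, adjusted p = 0.0689).

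Lipid and bile acid genes (9 of 21 in the panel) gave, with TMM, 3 lower at 24 h and 2 at 48 h, then 1 lower in each of 72 h, 14 d and 6 mo, with none higher, beside the shares over all genes given for the plasma proteins. Cyp8b1, the bile acid 12-alpha hydroxylase, was lower at 24 h (-2.61 ± 0.53, adjusted p = 0.00287) and 48 h (-4.00 ± 0.42, adjusted p = 4.34e-06), and also by total counts and per cell. Cyp27a1 was lower with TMM at 24 h (-1.10 ± 0.36), 48 h (-0.78 ± 0.28), 72 h (-0.83 ± 0.28) and 6 mo (-1.61 ± 0.37). By total counts it passed at 6 mo (-1.35, adjusted p = 0.0450) and not at 24 h (-0.69), 48 h (-0.0996) or 72 h (-0.42). Per cell it passed at none of these times, with -0.62 (24 h), -0.048 (48 h), 0.086 (72 h) and -1.68 (6 mo, adjusted p = 0.0607). Csad, of taurine synthesis, was lower at 24 h with TMM (-2.62 ± 0.77) and not by total counts (-2.30, adjusted p = 0.102) or per cell (-2.23, adjusted p = 0.113). Elovl2, a fatty acid elongase, was lower at 14 d with TMM (-1.66 ± 0.24, adjusted p = 2.35e-05) and by total counts (-0.94, adjusted p = 0.0132) and not per cell (-0.20, adjusted p = 0.575).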

How the data were processed

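Molecular Cartography was run by Resolve Biosciences on frozen sections, per the labels. The authors deposited transcript counts per gene and cell for 13 sections, and for 12 of them the positions of single transcripts, in coordinates whose unit is not stated in the sources used here. Decoding and cell outlines are not given in the sources used here. Gene-by-cell counts were summed per section, and the 24 h sections, which share a slide position and carry no number, were summed to 1 library (12 libraries). The test kept 99 of 100 genes (10 counts or more in 2 libraries or more) and fitted all times at once with TMM in edgeR 4.0.16 (R 4.3.3), by the quasi-likelihood F test in its robust form with 5 residual degrees of freedom. P-values were adjusted by Benjamini-Hochberg over genes, at a threshold of 0.05. An SE is the log2 fold change divided by the square root of F. Ratios used 1 member's count as library size. Positions used limma 3.58.1 in its robust form (62 genes of 500 or more transcripts in each section, mean of the 24 h values, residual degrees of freedom 4). CPM are computed here from the deposited counts. Alternatives included DESeq2 1.42.0, other scalings, filters, blocks and left-out sections, with positions in cells and Cyp2e1 left out of totals or score alone added after seeing the data. Both fits were tested on simulated data. The members, lists and rule for named genes (per list and time, up to 4 that pass, and per member the 3 genes with the highest r) were chosen with earlier results of these data known. Probe sequences were not used.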

Additional observations from a re-analysis of the deposited data

How the results depend on the processing

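Of 699 values under other settings, 63 changed a call or its direction, and of 822 values with 1 section left out, 57 did. Values are log2 changes against 0 h unless a pair of times is named. For levels, total-count scaling had Pon1 at 24 h -0.70 and Pon1 at 48 h -0.20 lost the call, Apom at 48 h 0.96, Apof at 72 h 0.66 and Apof at 14 d 1.13 gained a call, and Apof at 48 h 0.53 and Pon1 at 14 d 0.49 turned direction. For levels, cell-number scaling had Pon1 at 24 h -0.63 and Pon1 at 48 h -0.15 lost the call, Apom at 48 h 1.00, Apof at 72 h 1.16, Apom at 72 h 1.00 and Apof at 14 d 1.87 gained a call, and Apom at 14 d 1.00 and Pon1 at 14 d 1.22 turned direction. For levels, the 14 d sections as 1 library had Pon1 at 24 h -1.32 and Pon1 at 6 mo -1.22 lost the call. For levels, the slide as a block had Apom at 6 mo -1.02 gained a call. For levels, slide 1 alone had Pon1 at 24 h -0.99 and Pon1 at 48 h -0.69 lost the call. For levels, only the times compared had Pon1 at 24 h -1.26, Pon1 at 48 h -0.97 and Pon1 at 6 mo -1.38 lost the call, and Apom at 14 d against 72 h -0.43 gained a call. The test over all times gave these adjusted p past the threshold: Apom 0.0617 with scaling without Cyp2e1, Apom 0.122 with DESeq2, Apof 0.0632 and Apom 0.111 with no filter, Apof 0.0766 and Apom 0.139 with a minimum of 100 counts, Apof 0.0724 and Apom 0.14 with all listed transcripts, Apof 0.374 and Apom 0.186 with the 14 d sections as 1 library, Apof 0.445, Apom 0.445 and Pon1 0.0765 with the section number as a replicate block, Apof 0.192, Apom 0.0503 and Pon1 0.0958 with slide 1 alone. For ratios, all listed transcripts had Apof over Apom at 14 d 0.76 and Pon1 over Apof at 14 d -0.67 lost the call. For ratios, the 24 h sections as 2 libraries had Pon1 over Apof at 24 h -0.81 and Pon1 over Apof at 48 h -0.76 gained a call. For ratios, the 14 d sections as 1 library had Pon1 over Apom at 48 h -1.24, Apof over Apom at 14 d 0.87 and Pon1 over Apof at 14 d -0.68 lost the call. For ratios, the section number as a replicate block had Pon1 over Apom at 48 h -1.21, Apof over Apom at 14 d 0.82 and Pon1 over Apof at 14 d -0.68 lost the call. For ratios, slide 1 alone had Pon1 over Apom at 48 h -1.54 lost the call. For ratios, only the times compared had Pon1 over Apom at 48 h -1.24, Apof over Apom at 14 d 0.87 and Pon1 over Apof at 14 d -0.67 lost the call. For ratios, a fit that was not robust had Apof over Apom at 14 d 0.87 lost the call. For position (Fisher z), Cyp2e1 left out of score and totals had Apof at 48 h 0.47 and Apom at 48 h 0.30 lost the call, and Pon1 at 48 h -0.066 lost the call with its sign changed. For position (Fisher z), transcripts in cells had Apof at 14 d 0.39 gained a call. For position (Fisher z), Cyp2e1 left out of the totals only had Apof at 48 h 0.48 and Apom at 48 h 0.30 lost the call, and Pon1 at 48 h -0.079 lost the call with its sign changed. For position (Fisher z), the 24 h sections as 2 values had Apom at 24 h 0.42 gained a call. With each section left out in turn, the values with at least 1 changed call ranged as follows. Levels were Apof at 14 d -0.023 to 0.73, Apof at 3 mo -1.28 to -0.52, Apof at 48 h -0.64 to 0.19, Apof at 6 mo -0.80 to -0.15, Apof over all times (adjusted p) 0.00219 to 0.115, Apom at 14 d -1.005 to -0.0053, Apom at 14 d against 72 h -0.62 to -0.40, Apom at 24 h -1.04 to 0.043, Apom at 3 mo -1.43 to -0.43, Apom at 6 mo -1.07 to -0.18, Apom over all times (adjusted p) 0.00149 to 0.267, Pon1 at 72 h -0.70 to -0.27. Ratios were Apof over Apom at 14 d 0.76 to 1.00, Pon1 over Apof at 14 d -0.87 to -0.44, Pon1 over Apof at 24 h -1.01 to -0.57, Pon1 over Apof at 3 mo 0.43 to 0.86, Pon1 over Apof at 48 h -0.96 to -0.52, Pon1 over Apof at 6 mo -1.01 to -0.57, Pon1 over Apof at 72 h -0.88 to -0.44, Pon1 over Apom at 3 mo 0.33 to 1.01, Pon1 over Apom at 48 h -1.54 to -0.86, Pon1 over Apom at 6 mo -0.98 to -0.30, Pon1 over Apom at 72 h -0.85 to -0.17. Positions were Apof at 14 d 0.18 to 0.42, Apof at 24 h 0.17 to 0.41, Apof at 6 mo 0.13 to 0.37, Apof at 72 h 0.10 to 0.35, Apom at 24 h 0.35 to 0.50, Apom at 48 h 0.45 to 0.62, Pon1 at 14 d 0.12 to 0.32, Pon1 at 48 h 0.40 to 0.60. The level calls of Pon1 at 24 h (-1.38 to -0.89), 48 h (-1.25 to -0.78) and 6 mo (-1.38 to -1.16) passed without any 1 section, and most calls gained there came without 1 of the 0 h sections. The cause of these changes was not tested, and some settings also leave fewer libraries or genes. Of 12 pairs of sections with the same number, 4 had a correlation of deviations over 0.1 (r of -0.51 to 0.21, only 9 of them distinct because 2 sections of a time deviate as mirror images), so the sections were not taken as paired and the replicate block is given as an alternative alone. The slide block gave no value for 14 d. Each section held 1678015 counts or more, and counting error was not compared with the spread between sections. The number of sections (1 or 2 at most times) limits what can be told.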
